A study of Mus musculus with 16 samples.

Results

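The small nucleolar RNA (snoRNA) host genes examined here are *Gas5*, *Zfas1*, *Snhg1*, *Snhg3*, *Snhg5*, *Snhg6*, *Snhg8*, *Snhg12*, *Snhg15* and *Epb41l4aos*, a list of 10 named genes out of the 23609 genes of the expression table. Mouse gene symbols were matched to the Ensembl IDs of the table, and 10 of the 10 genes had values and were tested. Total RNA from primary mammary tumors was sequenced, and the values of 5 wildtype x PyMT tumors were set beside those of 5 gene trap x PyMT tumors, out of 16 labelled. Both groups carried the MMTV-PyMT transgene, in which the MMTV promoter drives polyoma middle T antigen in the mammary gland and tumors arise spontaneously. The gene trap animals were in addition *Resf1* +/-, from a lentiviral enhancer/gene trap line (C57BL/6-Et(EGFP/Cre)16255Rdav) with an insertion in the first exon of *Resf1*, and were compared with littermates. The age of the animals at collection and whether any tumors shared an animal are not given in the sources used here, so p-values measure the spread between these tumors.

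snoRNA host genes are transcribed and spliced like messenger RNAs, but the product they are best known for lies in their introns. Each intron can release a snoRNA, either of the box C/D class, which guides 2'-O-methylation of ribosomal RNA, or of the box H/ACA class, which guides pseudouridylation. The spliced exons are left as a noncoding RNA, and for several hosts this RNA is degraded by nonsense-mediated decay when it is translated from short open reading frames. Many hosts start transcription in a pyrimidine-rich stretch, the 5' terminal oligopyrimidine (5' TOP) motif that they share with ribosomal protein genes and that couples translation to mTOR signaling. *Gas5*, whose name comes from its accumulation in growth-arrested cells, is the best studied of the group.

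The start regions of these genes are shown because the 5' TOP motif is a feature that many such hosts are known to share. Promoter sequences of RefSeq (build GRCm38.p6) held 9 windows for 8 of the 10 genes, with 2 for *Gas5*. *Snhg6* and *Epb41l4aos* had no entry. The 60 bases printed here run 5' to 3' on the strand of the gene, with 40 bases before the annotated start and 20 from it, and capitals mark the longest run of C and T between 5 bases before and 15 bases after the start. The stretches lie at chr1:161035126-161035185 (+) for the downstream start of *Gas5*, chr19:8723447-8723506 (+) for *Snhg1*, chr9:88522878-88522937 (-) for *Snhg5*, chr3:123508317-123508376 (-) for *Snhg8*, chr4:132308638-132308697 (+) for *Snhg12* and chr4:132353667-132353726 (-) for *Snhg3*. These are positions of GRCm38.p6, while the reads were aligned to mm39.
Gas5: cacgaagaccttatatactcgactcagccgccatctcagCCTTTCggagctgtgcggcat
Snhg1: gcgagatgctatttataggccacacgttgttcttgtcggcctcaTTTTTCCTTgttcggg
Snhg5: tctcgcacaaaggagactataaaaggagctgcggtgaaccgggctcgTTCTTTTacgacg
Snhg8: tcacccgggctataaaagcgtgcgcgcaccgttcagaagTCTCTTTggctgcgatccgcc
Snhg12: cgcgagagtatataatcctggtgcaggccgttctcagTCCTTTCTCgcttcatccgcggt
Snhg3: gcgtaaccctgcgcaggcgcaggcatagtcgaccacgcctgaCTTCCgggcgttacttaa

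The first 5 of these windows hold a run of at least 6 pyrimidines in the 20 bases read around the start, and *Snhg3*, printed because its level moved most among the tumors, has a run of 5. In all, 5 of the 9 windows of the host genes hold such a run, against 17.6% of 32851 promoter windows of the same length. The upstream start of *Gas5*, with a run of 3, and the starts of *Zfas1* and *Snhg15*, each with a run of 4, do not. A TATAAA or TATATA, read on the strand of the gene between 45 and 16 bases before the start, is present in 4 of the 9 windows, those of *Gas5* (downstream), *Snhg5*, *Snhg8* and *Snhg12*, against 2.96% of all windows. TATAAA and TATATA can share letters with each other, and all 4 of these windows also hold a run of at least 6 pyrimidines. The motifs were chosen after the windows had been read, and a match describes the letters of the window only. A counted run need not begin at the start base, and those of *Snhg1* and *Snhg5* begin 4 and 7 bases after it. Whether such a run is a 5' TOP motif was not tested.

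The deposited values are estimated read counts per gene that the authors had already normalized between tumors, so the depth of sequencing behind each value cannot be stated. Column totals lay between 31995078 and 42153593, the highest being that of gene trap replicate 2. This tumor stood apart in the table as a whole. Of the 21034 genes tested, 22.4% had their highest value and 21.8% their lowest value in it, while each of the other 9 tumors held the highest value of 6.51% to 10.3% of genes. Mammary epithelial markers (9 of 9 measured, *Epcam* and *Krt8* among them) summed to between 89506 and 117080 in wildtype and between 92794 and 123010 in gene trap tumors, and none was near 0. *Resf1* itself had 3517 to 4487 in wildtype and 3066 to 4029 in gene trap tumors, its lowest value being that of gene trap replicate 2, and the groups overlapped (log2 difference -0.22, SE 0.09, limma adjusted p = 0.9997). Because gene trap replicate 2 stood apart, the results of the host genes are given with and without it.

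All 10 host genes had their highest level of all tumors in gene trap replicate 2, between 1.68 and 5.09 times the median of the other 9 tumors. The other 4 gene trap tumors overlapped with the wildtype tumors for each of the 10 genes, and between 0 and 3 of them lay above every wildtype tumor. The mean log2 value of each of the 10 genes was higher in the gene trap group, against 51.4% of all tested genes. The median log2 difference of the 10 was 0.34, and 0.13 without that tumor, against 0.00 over all tested genes in both fits. No gene differed between the genotypes at an adjusted p under 0.05.

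*Gas5* (ENSMUSG00000053332) carries 10 box C/D snoRNAs in its gene. Its normalized value was 5244, 5415, 5325, 4103 and 5783 in wildtype replicates 1 to 5. In gene trap replicates 1 to 5 it was 5786, 10853, 5040, 5828 and 6119. Replicate 2 of the gene trap was the highest tumor by far and wildtype replicate 4 the lowest, and the other 8 tumors lay close together. The group means were 5174 ± 633 (SD, n = 5) and 6725 ± 2342 (SD, n = 5), and the gene trap mean without replicate 2 was 5693 ± 460 (SD, n = 4). The log2 difference was 0.33 (SE 0.18) with all tumors and 0.14 (SE 0.10) without replicate 2. In the latter set 3 of the 4 gene trap tumors lay above every wildtype tumor, and the fourth, replicate 3, was the second lowest of the 9.

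*Zfas1* (ENSMUSG00000074578), which is transcribed away from the *Znfx1* start on the opposite strand and carries the Snord12 group of box C/D snoRNAs, had 1538, 1770, 1763, 1396 and 1642 in the wildtype tumors. In gene trap tumors it had 1762, 3950, 1685, 1893 and 1747. Apart from replicate 2, the gene trap values fell between 1685 and 1893 and the wildtype values between 1396 and 1770, so the groups overlapped. Between the genotypes it differed by 0.36 on the log2 scale (SE 0.20), and by 0.13 (SE 0.08) without replicate 2.

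*Snhg1* (ENSMUSG00000108414), with 8 snoRNAs the second richest host, gave 1788, 1609, 1822, 1498 and 1789 in wildtype tumors. The values of the gene trap tumors were 1785, 3808, 1623, 1946 and 1731. Among the remaining 9 tumors the 2 lowest were wildtype and the highest was gene trap replicate 4, with the others mixed between them. The log2 difference of 0.28 (SE 0.20) became 0.06 (SE 0.08) without replicate 2.

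*Snhg5* (ENSMUSG00000097195), host of Snord50a and Snord50b, had 1172, 1117, 1163, 978 and 1228 in wildtype tumors. In gene trap tumors it had 1263, 2022, 997, 1299 and 1156. In gene trap replicate 2 it reached 1.74 times the median of the other tumors, the second lowest ratio of the list. The log2 difference was 0.21 (SE 0.16), and 0.05 (SE 0.10) without that tumor.

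*Snhg6* (ENSMUSG00000098234), host of Snord87, had 628, 696, 614, 535 and 674 in wildtype tumors. The 5 gene trap values were 684, 1290, 592, 782 and 737. Here 2 of the 4 gene trap tumors other than replicate 2 exceeded every wildtype tumor. The log2 difference was 0.33 (SE 0.18), and 0.15 (SE 0.10) without replicate 2.

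Among the hosts of box H/ACA snoRNAs, *Snhg3* (ENSMUSG00000085241) was the lowest of the 10 genes. It carries Snora73a and Snora73b, which are needed for early cleavage of the ribosomal RNA precursor. Its value was 63.1, 106, 96.8, 84.4 and 94.7 in wildtype tumors and 79.5, 482, 76.6, 114 and 101 in gene trap tumors. Gene trap replicate 2 exceeded the next tumor 4.23-fold, the widest gap of the list. Without it the wildtype mean of 88.9 ± 16.3 (SD, n = 5) and the gene trap mean of 92.6 ± 17.7 (SD, n = 4) were closer than 1 SD. The log2 difference was 0.54 (SE 0.43) with all tumors and 0.06 (SE 0.19) without replicate 2.

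*Snhg8* (ENSMUSG00000104960), host of Snora24, had 564, 641, 617, 606 and 514 in wildtype tumors. The gene trap tumors had 650, 1943, 623, 773 and 703. Of the 5 wildtype tumors 4 lay below every gene trap tumor, the most of the list, and the groups overlapped only by gene trap replicate 3, at 623, and wildtype replicate 2, at 641. Its means were 588 ± 50.1 (SD, n = 5) and 939 ± 564 (SD, n = 5), and the gene trap mean without replicate 2 was 687 ± 66.2 (SD, n = 4). The log2 difference was 0.52 (SE 0.26), with a limma unadjusted p of 0.0672 and a two-sided exact permutation p of 0.0159. The exact permutation p of the other host genes lay between 0.0794 (*Zfas1*) and 0.683 (*Epb41l4aos*). The share of all tested genes with an exact p this low was not computed. Without replicate 2 the log2 difference of *Snhg8* was 0.22 (SE 0.09), with a limma unadjusted p of 0.0348 and an exact permutation p of 0.0317. Over all 21034 tested genes the limma adjusted p was 0.9997, and it was 1.00 without that tumor.

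*Snhg12* (ENSMUSG00000086290), which carries Snora16a, Snora44 and Snora61 together with the box C/D snoRNA Snord99, had 852, 1159, 1126, 786 and 1002 in wildtype tumors. Among gene trap tumors it was 1109, 2216, 909, 1134 and 1136. Gene trap replicate 2 was the only gene trap tumor above the highest wildtype tumor. With all tumors the log2 difference was 0.34 (SE 0.21), and without it 0.13 (SE 0.13).

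*Snhg15* (ENSMUSG00000085156), host of Snora9, had 985, 872, 668, 729 and 639 in wildtype tumors. The gene trap tumors had 856, 1434, 854, 883 and 982. The highest wildtype tumor, replicate 1, exceeded 4 of the 5 gene trap tumors, while wildtype replicates 3, 4 and 5 lay below all of them. The SD of the wildtype tumors was 146 on a mean of 779. Its log2 difference was 0.35 (SE 0.16, exact two-sided permutation p = 0.0952), and 0.22 (SE 0.12) without replicate 2.

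*Epb41l4aos* (ENSMUSG00000087590), transcribed from the opposite strand beside *Epb41l4a*, had 310, 339, 319, 272 and 277 in wildtype tumors. Gene trap values were 279, 739, 264, 331 and 308. Its difference rested on 1 tumor, since the log2 difference of 0.23 (SE 0.24) turned to -0.04 (SE 0.11) without gene trap replicate 2. In that smaller set the gene trap group held the lowest tumor and the wildtype group the highest.

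**Figure D1:**
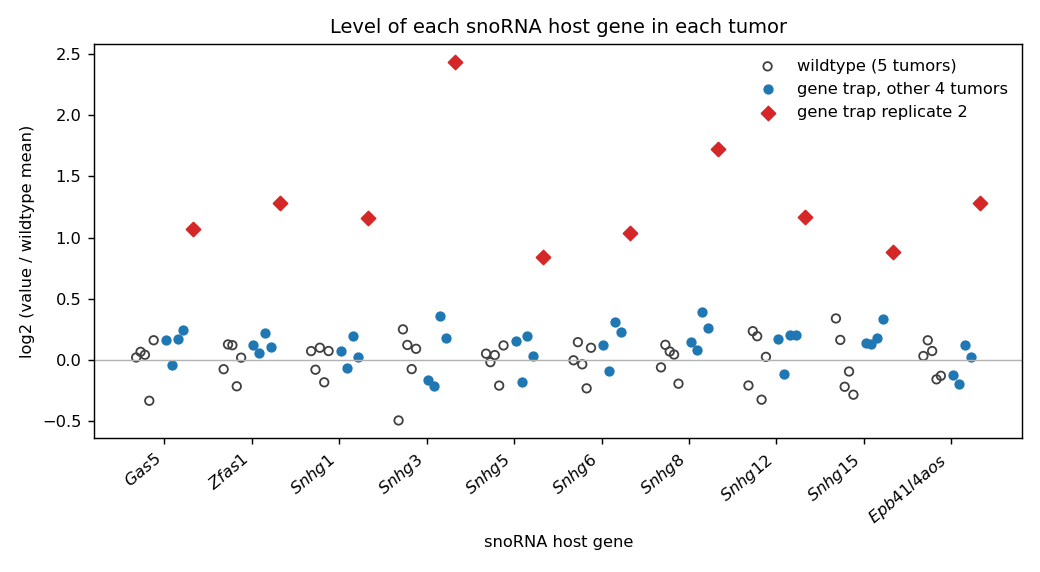
Level of each snoRNA host gene in each tumor, as log2 of the value over the mean of the 5 wildtype tumors of that gene. Open circles are the wildtype tumors, blue dots 4 gene trap tumors and red diamonds gene trap replicate 2, which lies above every other tumor for all 10 genes while the remaining tumors of both groups overlap.

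The comparison of the genotypes was fitted with limma on log2(value + 1) over the 21034 genes with a mean of at least 10. On this scale the change of a gene with low values is understated. For *Snhg3* this was slight, with a log2 difference of 0.538, against 0.541 with a pseudocount of 0.1. At an unadjusted p under 0.05, 1 of the 10 host genes was higher in gene trap tumors and 0 were lower, against 1.32% of all tested genes that were higher at that level. The gene was *Snhg15*, whose 95% interval of the log2 difference, from 0.00 to 0.70, began close to 0. After Benjamini-Hochberg adjustment over all tested genes 0 of 10 passed 0.05, as did 0% of all genes, and the count of all genes at an unadjusted p under 0.05 was 479. The groups were without overlap for 0 of the 10 host genes, against 0.266% of all genes in which every gene trap tumor exceeded every wildtype tumor. The confidence intervals leave room for sizeable differences, since for *Gas5* the 95% interval of the log2 difference ran from -0.06 to 0.72.

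Without gene trap replicate 2, the mean stayed higher in the gene trap group for 9 of the 10 genes, with *Epb41l4aos* as the exception. Among all tested genes 50.1% were higher in the gene trap group in that fit, with a median log2 difference of 0.00. The host genes vary together, as described below, so these 9 directions are not independent of each other. At an unadjusted p under 0.05, 1 of the 10 was higher, *Snhg8*, against 1.01% of all genes, and *Snhg15* no longer passed. After adjustment 0 of 10 and 0% of all genes passed, and 398 of all genes had an unadjusted p under 0.05. Groups without overlap were found for 0 of the 10 genes, against 0.390% of all genes. The intervals narrowed, to between -0.08 and 0.36 for *Gas5* and between 0.02 and 0.43 for *Snhg8*.

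**Figure D2:**
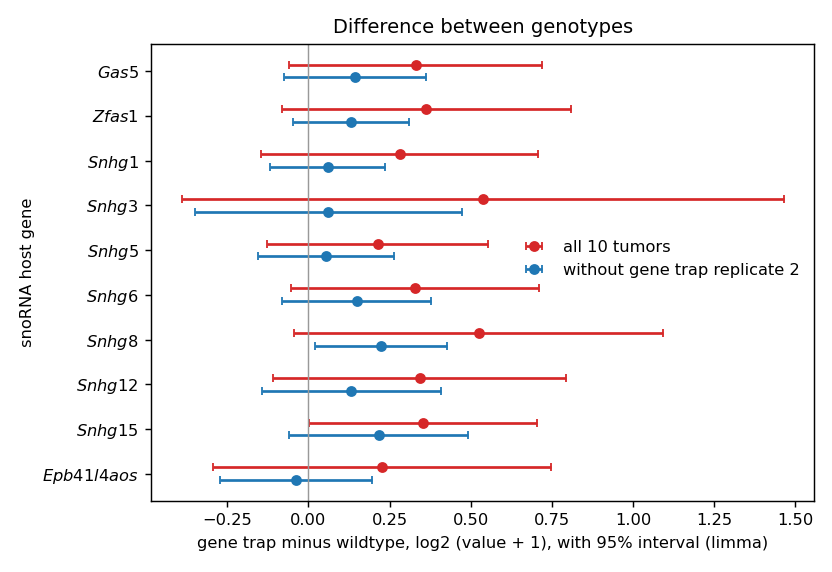
Difference between gene trap and wildtype tumors for each snoRNA host gene, as the log2(value + 1) difference with its 95% interval from limma. Red marks the fit of all 10 tumors and blue the fit without gene trap replicate 2, in which every estimate lies nearer 0 and that of *Epb41l4aos* turns to -0.04.

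In gene trap replicate 2, 9 of the 10 host genes were more than 1.5-fold above each of the other 9 tumors, against 3.30% of all tested genes, and *Snhg15* was 1.46-fold above the next tumor. The ratio to the median of the other 9 tumors was 5.09 for *Snhg3*, 3.12 for *Snhg8*, 2.40 for *Epb41l4aos*, 2.26 for *Zfas1* and 2.13 for *Snhg1*. It was 2.00 for *Gas5* and for *Snhg12*, 1.91 for *Snhg6*, 1.74 for *Snhg5* and 1.68 for *Snhg15*. As a log2 ratio the median over the 10 genes was 1.05, against 0.01 over all tested genes. The lowest tumor was less uniform. Wildtype replicate 4 held the lowest value of 6 of the 10 genes, *Gas5*, *Zfas1*, *Snhg1*, *Snhg5*, *Snhg6* and *Snhg12*, and of 9.34% of all tested genes, with a median log2 ratio of -0.26 over the host genes. None of the 10 was more than 1.5-fold below all other tumors there.

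Levels in gene trap replicate 2 differed by gene type across the table, and by transcript length within some types. Among noncoding genes other than pseudogenes with a median annotated transcript length under 300 bases, the median log2 ratio of this tumor was 1.24 over 63 genes. It was 0.17 over 257 genes of 300 to 600 bases and 0.14 over 587 genes of 600 to 1000 bases, the classes that hold 5 host genes each, while the medians of the other 9 tumors lay between -0.14 and 0.06 and between -0.15 and 0.15 in these classes. Above 1000 bases the medians of the remaining types in this tumor were 0.17 to 0.19, within or at the edge of the range of the other tumors. These medians therefore did not decline further with length. In protein-coding genes the median went from 0.18 at 300 to 600 bases to -0.06 at 4000 bases or more. The host genes lay at 0.74 to 2.35, above both class medians, and 13.6% and 8.01% of the genes of these classes were more than 1.5-fold above every other tumor. Pseudogenes were lower in this tumor, with class medians between -1.36 and -0.63, while the class medians of pseudogenes in the other 9 tumors lay between -0.17 and 0.17. The part of transcript length and of read assignment in the levels of the host genes was not tested.

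**Figure D3:**
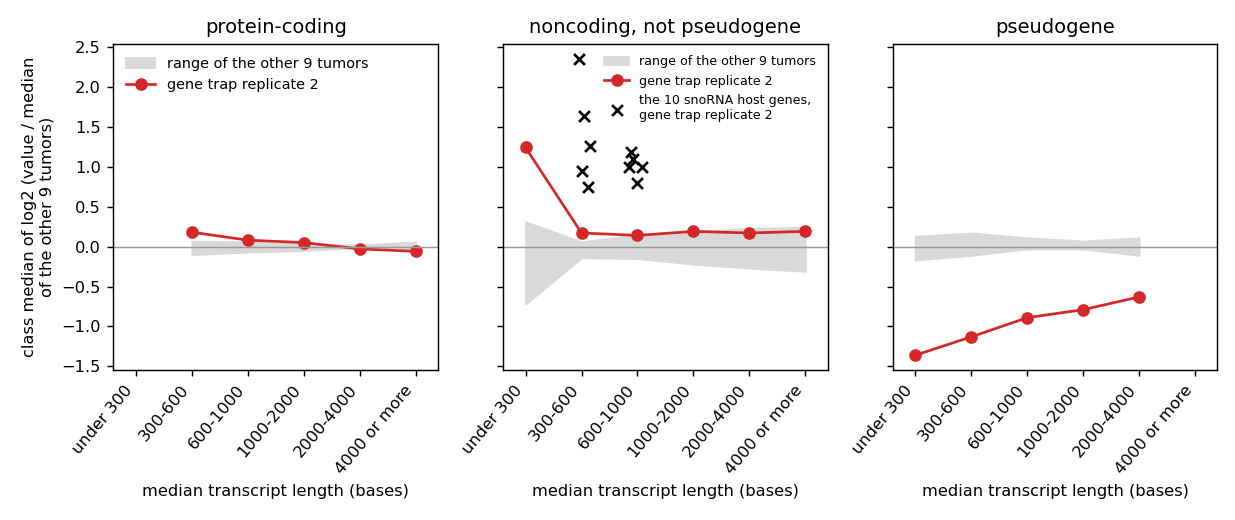
Median log2 ratio of a tumor's value to the median of the other 9 tumors, by class of median transcript length, for protein-coding genes, genes of all remaining types and pseudogenes. The panel titled noncoding, not pseudogene holds every gene annotated neither as protein-coding nor as a pseudogene. Red marks gene trap replicate 2, the grey band the range of the other 9 tumors and black crosses the 10 snoRNA host genes in gene trap replicate 2, which lie above the medians of 0.17 and 0.14 of their classes.

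Across all 10 tumors the snoRNA host genes varied together, in large part through gene trap replicate 2. Over all 10 tumors Pearson's r of the log2 values was positive for 45 of 45 pairs, with a median of 0.93 and a range of 0.69 to 0.98, and 44 pairs had an adjusted permutation p under 0.05 over the 45 pairs. Spearman's rho had a median of 0.66, and 18 pairs passed by rho. The relation rested in large part on gene trap replicate 2, since r without the 2 tumors farthest from the median of the first gene of each pair had a median of 0.41, between -0.17 and 0.89. Of all pairs of tested genes, 0.124% reached an r of the host genes' median. The shares of all pairs with a positive r or with an adjusted p under 0.05 were not computed, here or without that tumor.

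Without gene trap replicate 2, r was positive for 44 of the 45 pairs and its median was 0.53, a level that 9.26% of all pairs of tested genes reached. The exception was *Snhg3* with *Snhg15*, at -0.21. In this set of 9 tumors 4 pairs passed an adjusted exact permutation p of 0.05 by r and 0 by rho. *Zfas1* and *Snhg12* had r = 0.92 (exact permutation p = 4.71e-04, adjusted 0.0112) and rho = 0.85 (exact p = 0.00607, adjusted 0.121), with r = 0.69 after the 2 farthest tumors were left out. *Snhg1* and *Snhg5* had r = 0.90 (exact permutation p = 5.79e-04, adjusted 0.0112) and rho = 0.83 (exact p = 0.00827, adjusted 0.121), with r = 0.88 after that step. *Gas5* and *Snhg6* had r = 0.89 (exact permutation p = 7.47e-04, adjusted 0.0112) and rho = 0.92 (exact p = 0.00131, adjusted 0.0590), with r = 0.82 after it. *Gas5* and *Snhg5* had r = 0.81 (exact permutation p = 0.00392, adjusted 0.0441) and rho = 0.65 (exact p = 0.0666, adjusted 0.176), with r = 0.90 after it. *Snhg15* followed the others least, with a median r of 0.20 to the other 9 genes, against 0.74 for *Gas5*.

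**Figure D4:**
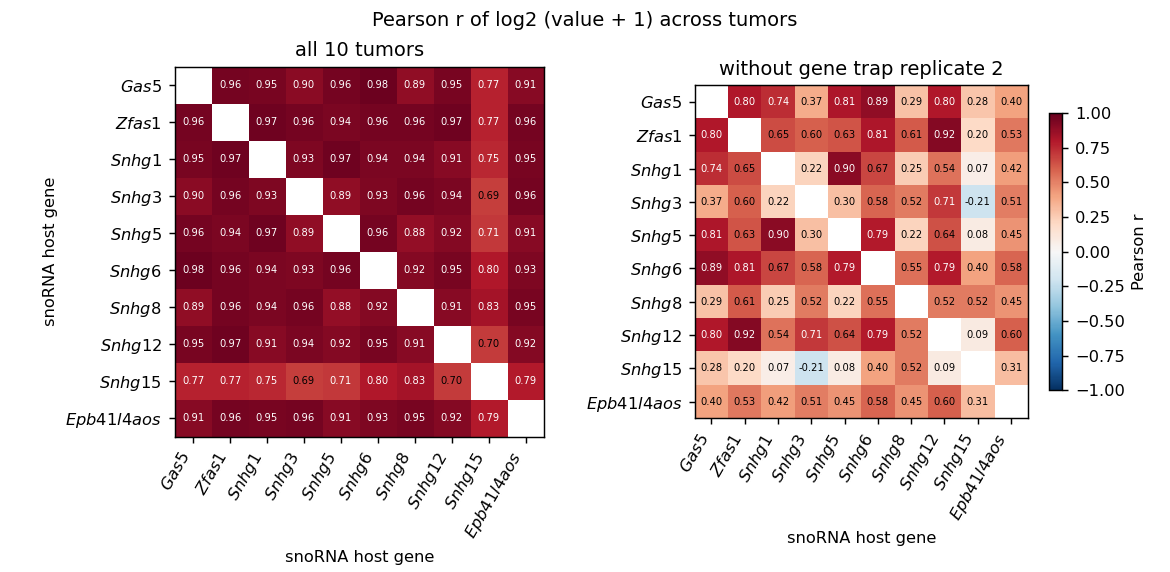
Pearson's r of log2(value + 1) between each pair of snoRNA host genes, on the left over all 10 tumors and on the right over the 9 tumors other than gene trap replicate 2. The median of the 45 pairs is 0.93 on the left and 0.53 on the right, where the row of *Snhg15* is the palest.

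Levels can be compared between genes only per length. Per kilobase of merged annotated exon, the wildtype mean was 1376 ± 168 (SD, n = 5) for *Gas5*, the highest of the 10, and 90.2 ± 16.5 (SD, n = 5) for *Snhg3*, the lowest. *Gas5* and *Snhg3* did not overlap with any neighbour over the 5 wildtype tumors. Between them came *Epb41l4aos*, *Snhg8*, *Snhg5*, *Snhg15*, *Snhg1*, *Zfas1*, *Snhg6* and *Snhg12*, from 706 to 410 per kilobase, and each overlapped the next in the order. The order depends on the length used. Per kilobase of the median annotated transcript *Gas5* and *Snhg3* kept the first and last place, but *Epb41l4aos* moved from place 2 to place 9 and *Snhg1* from place 6 to place 2.

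Reads of the snoRNAs themselves could enter the host values. In the GENCODE annotation (mouse release 21) 34 snoRNAs lie inside the 10 genes, and 30 of them lie wholly within annotated exons of the host. The counter and the handling of such overlaps are not given in the sources used here. No snoRNA lies wholly within an exon of *Snhg3*, *Snhg6* or *Epb41l4aos*, although Snora73a shares 159 bases with exons of *Snhg3*. These 3 host genes had ratios of 5.09, 1.91 and 2.40 in gene trap replicate 2. In that tumor Snora73a had 5112 and *Snhg3* 482. The part of snoRNA reads in the host values was not tested.

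Only 3 of the 34 snoRNAs had a row of their own, Snora73a and Snora73b of *Snhg3* and Snord22 of *Snhg1*. Snora73a had 3240, 3290, 3893, 3561 and 2626 in wildtype tumors and 2112, 5112, 2857, 3102 and 3152 in gene trap tumors. Snora73b had 3060, 3140, 2946, 3176 and 1965 in wildtype tumors and 1551, 6464, 2391, 2627 and 2761 in gene trap tumors. Both were highest in gene trap replicate 2, like their host, and both were lowest in gene trap replicate 1. Without gene trap replicate 2 their log2 differences were -0.25 (SE 0.14) and -0.31 (SE 0.18), while that of *Snhg3* was 0.06 (SE 0.19), and for none of them did the groups separate. Snord22 ranged from 1.29e-04 to 341 in 9 tumors and was 661 in gene trap replicate 2, and a value this variable gives no usable difference between the groups.

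Some hosts share exon bases with other genes, and whether strand was used in counting is not given in the sources used here. *Snhg3* shares 135 exon bases with *Rcc1*, a guanine nucleotide exchange factor gene on the same strand, and 705 with the noncoding gene *Gm17300* on the opposite strand. *Rcc1* was 789 in gene trap replicate 2 and 627 to 895 elsewhere, within the range of the other tumors. *Gm17300* went the other way, with 3254 in gene trap replicate 2 and 3753 to 7115 elsewhere (log2 difference between the genotypes -0.42, SE 0.17, limma adjusted p = 0.9997). *Zfas1* shares 82 bases with *Znfx1* and *Snhg6* shares 127 with *Mcmdc2*, both on the opposite strand, and *Znfx1* and *Mcmdc2* in gene trap replicate 2 were 0.78 and 1.22 times the median of the other tumors.

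The other genes of the pathway were examined in lists. From each list except the ribosomal protein genes, the 2 genes with the smallest p are named with their log2 difference between the genotypes. The limma adjusted p was 0.9997 for each gene of these lists. Of 11 other noncoding snoRNA host genes 7 were measured here, and at an unadjusted p under 0.05 1 was higher and 0 lower in gene trap tumors. The gene was *Dancr*, known for holding progenitor cells undifferentiated, at a log2 difference of 0.41 (SE 0.17), and at 0.26 without gene trap replicate 2. *Snhg10* was next at 0.48 (SE 0.23). In gene trap replicate 2, 5 of the 7 had their highest value, 3 were more than 1.5-fold above every other tumor, and the median log2 ratio was 0.90. Among 9 noncoding RNAs that host no snoRNA, 1 was highest in that tumor and 0 passed 1.5-fold, with a median log2 ratio of 0.06. In this list 1 gene was higher and 0 lower at an unadjusted p under 0.05, *Kcnq1ot1*, the antisense RNA of an imprinted domain, at 0.21 (SE 0.09), and *Miat* followed at 0.54 (SE 0.33).

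Of 23 protein-coding genes with snoRNAs in their introns, 0 were higher and 0 lower at an unadjusted p under 0.05. The smallest p values were those of *Nop56*, a core protein of box C/D particles (0.19, SE 0.09), and *Wdr43*, a nucleolar factor of ribosome assembly (0.15, SE 0.08). In gene trap replicate 2, 9 of the 23 had their highest value but 0 were more than 1.5-fold above every other tumor, and the median log2 ratio was 0.14. Of 17 translation genes with a 5' TOP tract, 0 were higher and 0 lower. *Npm1*, a nucleolar chaperone, had 0.14 (SE 0.12) and *Hnrnpa1*, a splicing regulator, 0.15 (SE 0.16). In gene trap replicate 2, 2 of the 17 passed 1.5-fold, with a median log2 ratio of 0.15. Ribosomal protein genes, a group of 82 taken by symbol and added after the other lists, had a median of 0.40 there, with 54 at their highest value and 23 past 1.5-fold. At an unadjusted p under 0.05, 1 of the 82 was higher and 0 were lower in gene trap tumors.

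Regulators of 5' TOP messenger RNAs, *Larp1* and *Mtor* among them, gave 0 of 8 higher and 0 lower at an unadjusted p under 0.05. *Tial1* had 0.08 (SE 0.06) and *Eif4ebp1*, the translation inhibitor that mTOR phosphorylates, 0.10 (SE 0.14). Their median log2 ratio in gene trap replicate 2 was 0.11, and 0 passed 1.5-fold. The nonsense-mediated decay factors likewise gave 0 of 16 higher and 0 lower, with *Smg5* at 0.17 (SE 0.09) and *Rbm8a*, of the exon junction complex, at 0.19 (SE 0.14). In gene trap replicate 2 their median log2 ratio was 0.09 and 1 of 16 passed 1.5-fold.

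The core proteins that package snoRNAs came nearer to the hosts in gene trap replicate 2. There 6 of 8 had their highest value, 3 were more than 1.5-fold above every other tumor and the median log2 ratio was 0.60. *Gar1*, a core protein of box H/ACA particles, had 413, 498, 408, 426 and 403 in wildtype tumors and 467, 1099, 454, 569 and 389 in gene trap tumors. *Nop56* and *Gar1* were the genes with the smallest p values, the latter at 0.37 (SE 0.23), and 0 of 8 were higher or lower at an unadjusted p under 0.05. Of 13 factors of snoRNP assembly and intron processing, 1 was higher and 0 were lower, *Znhit6*, an assembly factor of box C/D particles, at 0.30 (SE 0.14), and *Rpap3* followed at 0.09 (SE 0.09). Without gene trap replicate 2 *Znhit6* had 0.16 and did not pass. In that tumor 1 of the 13 passed 1.5-fold, with a median log2 ratio of 0.09.

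**Figure D5:**
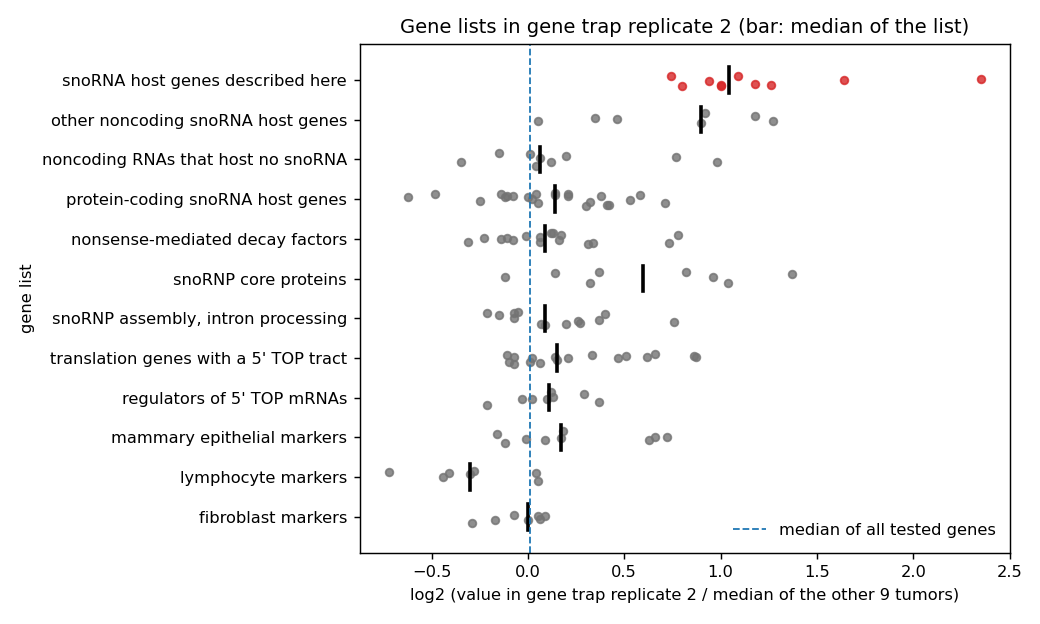
Log2 ratio of the value in gene trap replicate 2 to the median of the other 9 tumors, for each tested gene of each list, with the list median as a black bar and the median of all tested genes as a dashed line. The 10 snoRNA host genes described here (red) have a median of 1.05, other noncoding snoRNA host genes 0.90 and snoRNP core proteins 0.60, while the other lists plotted have medians between -0.30 and 0.17; the ribosomal protein genes, not plotted, have 0.40.

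In gene trap replicate 2 the sums of the lymphocyte and the fibroblast markers lay within the range of the wildtype tumors. Markers specific to further cell types, such as macrophages or endothelial cells, were not examined. Lymphocyte markers (7 of 10 measured) summed to 1334 there, against 1264 to 2302 in wildtype and 1135 to 3249 in gene trap tumors. None of the 7 was at 0. *Ptprc*, which leukocytes other than lymphocytes also express, made up 1190 of the 1334, so the sum mainly gives the level of *Ptprc*. Each of the 7 genes lay within its own wildtype range in gene trap replicate 2. *Trbc2* (-0.43, SE 0.47) and *Cd3e* (-0.39, SE 0.51) had the smallest p values. Fibroblast markers (7 of 7) summed to 63101 there, against 39346 to 84313 in wildtype and 52002 to 120672 in gene trap tumors, with *Col1a2* (0.23, SE 0.24) and *Col1a1* (0.23, SE 0.24) first. Mammary epithelial markers had their highest sum, 123010, in gene trap replicate 2, with *Cldn4* (-0.27, SE 0.16) and *Elf5* (-0.13, SE 0.13) first. *Krt18* made up 35379 of that sum, at 1.55 times the median of the other tumors. *Cldn7* and *Cldn3* were at 1.65 and 1.59 times. The remaining markers lay between 0.895 (*Elf5*) and 1.13 (*Cldn4*), with *Epcam* at 0.996 and *Cdh1* at 0.917. Of the 9 markers 3 were highest in that tumor, and their median log2 ratio was 0.17. None of the 23 measured markers had an unadjusted p under 0.05. In bulk tumors a change in the number of cells of a type and a change of RNA per cell cannot be told apart, and the part of the cell mixture in the levels of the host genes was not tested.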

How the data were processed

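Per the labels, RNA was isolated with Trizol, libraries were made with the TruSeq Stranded Total RNA kit, and Partek, STAR (version 2.7.8a), DESeq2 and build mm39 are named for the processing. The authors deposited a table of signal values, which are estimated counts per gene scaled between tumors by the median ratio method, with fractions and 0 zeros. The counter and annotation are not given in the sources used here. Whole reads and depth could not be recovered, so count tests were not used and no interval covers counting error. Of 16 value columns, 10 carried the name of a labelled tumor and 6 were not used.

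Gene symbols were found for 22899 (97.0%) of 23609 IDs. A pseudocount of 1 was added before log2 conversion. Genes with a mean of at least 10 entered a limma model (version 3.58.1, run in R 4.3.3) of genotype alone, with a variance trend, and p was adjusted over all tested genes by Benjamini-Hochberg. For single genes a two-sided exact permutation test used all 252 arrangements of the tumors, whose smallest p is 0.00794 (126 arrangements, smallest p 0.00794, without gene trap replicate 2). Pairs were correlated with 100000 two-sided permutations over 10 tumors and all permutations over 9. The scripts were tested on simulated data. Transcript lengths and overlaps came from GENCODE mouse release 21 and promoter windows from RefSeq. Figures were drawn with matplotlib (version 3.10.9).

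The host genes and all other lists were chosen with earlier results of these data known. Named are all host genes, *Resf1*, snoRNAs with a row, and genes with a row that share exon bases with a host. From each other list except the ribosomal protein genes, the 2 genes with the smallest p are named. Genes whose groups do not overlap were to be named as well, of which there were 0. Some further genes are named as examples of their list. The alternatives were the replicate block, removal of each tumor, another or no filter, pseudocounts of 0.1 and 8, quantile normalization, array weights, no variance trend, centring within genotype for the pairs and, chosen after seeing the data, centring of length classes.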

Additional observations from a re-analysis of the deposited data

Results flagged for a closer look

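In groups of 5 tumors, the highest and lowest values were compared with the spread of their group by Dixon's criterion at the 95% level for the 10 host genes, *Resf1* and the 3 snoRNAs with a row. Of 28 groups 12 held a value far from the others, where the nominal level (1 in 20) gives about 1.40. Genes that vary together are not independent, and the share of all tested genes flagged by this criterion was not computed. Gene trap replicate 2 was the tumor in 11 of the 12. This tumor held the highest value of 22.4% and the lowest of 21.8% of all tested genes, so it stood apart before this check. It was the high value for *Gas5* (10853), *Zfas1* (3950), *Snhg1* (3808), *Snhg3* (482), *Snhg6* (1290), *Snhg8* (1943), *Snhg12* (2216), *Snhg15* (1434) and *Epb41l4aos* (739), which are 9 of the 10 host genes, with *Snhg5* as the exception. It was also the high value for Snora73b (6464) and Snord22 (661). The remaining one was the low value of Snora73b in wildtype replicate 5 (1965).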

How the results depend on the processing

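The log2 differences of the 10 host genes kept their direction in 189 of 190 refits over 19 alternatives. The exception was *Epb41l4aos*, at -0.039 without gene trap replicate 2 and between -0.039 and 0.331 over the removals of 1 tumor. The replicate block, another or no filter and no variance trend leave the estimates as they were, so those refits could not change direction. Only 1 of the 19 alternatives left out gene trap replicate 2. The count of all genes with an adjusted p under 0.05 stayed 0 under every alternative. The count of host genes with an unadjusted p under 0.05, 1 as reported, was 2 (*Snhg8* and *Snhg15*) with the replicate block, where 426 of all 21034 tested genes passed in either direction, against 479 as reported. It was 0 with a mean of at least 50 (326 of 16174 genes), with array weights (580 of 21034), with no variance trend (576 of 21034) and with length classes centred (493 of 20536), and between 0 and 4 when each tumor was left out, with 4 (*Gas5*, *Snhg6*, *Snhg8* and *Snhg15*) without gene trap replicate 3 (610 of 20995 genes) and 0 without wildtype replicates 3, 4 or 5 or gene trap replicate 5. With array weights the median difference of the host genes fell from 0.34 to 0.17, and it was 0.45 with length classes centred, a step chosen after the data were seen. The count of correlated pairs was 44 as reported, between 4 and 44 when each tumor was left out, with 4 without gene trap replicate 2, and between 30 and 44 otherwise. The cause of these changes was not tested. Tumors with the same number come from different animals. After subtraction of the group means they correlated at between -0.16 and 0.15, with 1 of 5 correlating best with its own number, so the paired fit is given only here. Tests of whole counts (edgeR, DESeq2) were left out, since normalized fractions were deposited. The unknown depth limits what can be said of low values such as those of *Snhg3* and Snord22.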
